A study of Homo sapiens with 11 samples.

Results

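The G2 and mitosis genes described here are 40 genes that act between the end of DNA replication and the separation of daughter cells, chosen by name from the 23287 genes of a human embryonic stem cell series. They were grouped by role into 8 sets: mitotic entry, spindle, chromosomal passenger complex, spindle checkpoint, kinetochore, anaphase ubiquitination, chromosome structure and cytokinesis. All 40 were found in both expression tables, and all 40 reached the mean of 1 RPKM that was required for testing. RPKM is the number of reads per kilobase of transcript, scaled to the mapped reads of the library.

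RNA was sequenced in 11 libraries from the lines H1 and H7, 1 library per group, so no group had a replicate. Of these, 9 came from cells collected 5 days after lentiviral infection. The virus encoded either a control shRNA or 1 of 2 shRNAs against the cyclin E1 gene CCNE1, labelled uCCNE1 and pCCNE1. Each shRNA was used in 3 cultures: primed H1, H7 in the naive medium 5iLA and H1 in the naive medium t2iGo. The other 2 libraries were untreated H7 cells, primed or in 5iLA, and stand in a table of their own that was treated as normalised separately. The control libraries of the first table therefore also carry lentivirus and an shRNA. Line and medium differ together between 5iLA H7 and the other 2 cultures, and the labels describe the primed H1 libraries by another naming scheme than all others, so that culture and preparation cannot be told apart there. In bulk RNA, fewer cells in G2 or mitosis and less RNA per cell cannot be told apart.

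Libraries of the shRNA table held an estimated 6.49 to 24.2 M reads and the untreated ones 13.6 and 25.2 M, so that 1 read on a transcript of 2 kb stood for 0.0198 to 0.0771 RPKM. Member values rested on an estimated 56.1 reads (CDC25B in t2iGo H1 with pCCNE1) to 26568 reads (BUB3 in primed H1 with pCCNE1), with a median of 1178. In primed H1, CCNE1 itself had 11.95 RPKM in the control library and 6.75 and 10.5 RPKM in the uCCNE1 and pCCNE1 libraries. It had 14.1, 5.27 and 8.38 RPKM in 5iLA H7 and 9.65, 5.38 and 5.25 RPKM in t2iGo H1, lower than control in all 6 libraries. Over the 3 cultures CCNE1 itself did not pass with either shRNA: with uCCNE1 it was at -0.92 ± 0.20 (limma adjusted p = 0.349), and with pCCNE1 it was at -0.54 ± 0.20 (limma adjusted p = 0.246), on the log2(RPKM + 1) scale. All 8 naive markers examined were higher in the 3 libraries of 5iLA H7 than in any library of the other cultures, with a sum of 469.8 to 833 RPKM. In t2iGo H1 that sum was 2.38 to 3.07 RPKM, no higher than the 3.35 to 4.61 RPKM of primed H1, so the naive label of t2iGo was not matched by these markers. The 8 primed markers summed to 318 to 366 RPKM in t2iGo H1, 1626 to 1957 RPKM in primed H1 and 21.9 to 50.4 RPKM in 5iLA H7. Markers of other cell types moved with culture as well. All 7 endoderm markers were higher in t2iGo H1 (sum 25.8 to 48.1 RPKM) than in primed H1 (0.939 to 3.69 RPKM) or 5iLA H7 (0.558 to 0.766 RPKM, with TTR and APOA1 at 0). Of 8 fibroblast and feeder markers, COL3A1, LUM and DCN were higher in all 3 t2iGo libraries than in primed H1, and COL1A2, THY1 and FBLN1 were lower. The fibroblast sums were 90.1 to 242 RPKM in t2iGo H1, 197 to 271 RPKM in primed H1 and 7.22 to 16.6 RPKM in 5iLA H7. THY1 is also among the 8 primed markers. It made up 94.5 to 195 RPKM of the fibroblast sums in primed H1 and 6.73 to 8.91 RPKM in t2iGo H1. Of 6 trophoblast markers, 5 were higher in 5iLA H7 (sum 61.6 to 72.4 RPKM) than in t2iGo H1 (9.31 to 12.4 RPKM), and the same number were higher than in primed H1 (5.79 to 12.3 RPKM, with CGA at 0). The part of other cell types in the values below was not tested.

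Cells enter mitosis when cyclin B and the kinase CDK1 become active together, a step driven by CDC25 phosphatases and held back by WEE1 and PKMYT1. Aurora and Polo-like kinases then build the spindle, the spindle checkpoint waits until every kinetochore is attached, and the anaphase-promoting complex with CDC20 and UBE2C marks cyclin B and securin (PTTG1) for destruction. Transcripts of these genes are low in G1 and peak in G2 and mitosis. The shared timing depends on the MuvB complex with B-MYB (MYBL2) and FOXM1, which binds a promoter element named CHR, and on the factor NF-Y, which binds the sequence CCAAT. Pluripotent stem cells have a short G1 phase, so a large share of cells in culture is in S, G2 or M.

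The promoters of the members were searched for these letters, and are given first because the element and the box are what the genes are known to share. RefSeq windows (build GRCh38.p14, 250 bases before to 50 bases after a transcript start) were found for 33 members, with 43 windows in all, since some genes have more than 1 start. CCAAT, the NF-Y box, was searched on both strands, as were TTTGAA and TTCGAA, which are forms of the CHR. No other form of the CHR was searched. CCAAT was present in 34 of the 43 member windows (79.1%), against 34.6% of all 35116 windows and 35.1% of the 12793 windows of tested genes. A form of the CHR was present in 30 member windows (69.8%), against 16.4% of all windows and 11.9% of those of tested genes. Both were present in 27 member windows (62.8%), against 6.38% of all windows. The first base of the 81 CCAAT matches lay at a median of 90 bases before the start, with quartiles at -134 and -55, and that of the 42 CHR matches at a median of 29 bases before it, with quartiles at -103 and -18.5. A match is a description of the letters and does not show that a factor binds there.

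The 150 bases before the start are printed below for CDK1 and the B cyclins, which define mitotic entry, for CDC20 and PLK1, and for AURKB, CENPE and CENPF, which differed between cultures in opposite directions. Capitals mark matches to CCAAT and to the CHR forms or their reverse complements, and each sequence runs 5′ to 3′ along the strand of its gene. Their positions on GRCh38.p14 are CDK1 at chr10:60778328-60778477 (plus strand), CCNB1 at chr5:69167000-69167149 (plus strand), CCNB2 at chr15:59104996-59105145 (plus strand), CDC20 at chr1:43358831-43358980 (plus strand), PLK1 at chr16:23678739-23678888 (plus strand), AURKB at chr17:8210250-8210399 (minus strand), CENPE at chr4:103198344-103198493 (minus strand) and CENPF at chr1:214603045-214603194 (plus strand). For CDK1 and AURKB, which have 2 windows each, the one with more matches in these 150 bases is shown. Over the whole windows of 300 bases, the 2 of AURKB have equal matches.
CDK1: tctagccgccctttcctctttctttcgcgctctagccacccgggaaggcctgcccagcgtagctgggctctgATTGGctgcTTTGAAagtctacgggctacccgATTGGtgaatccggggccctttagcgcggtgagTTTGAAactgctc
CCNB1: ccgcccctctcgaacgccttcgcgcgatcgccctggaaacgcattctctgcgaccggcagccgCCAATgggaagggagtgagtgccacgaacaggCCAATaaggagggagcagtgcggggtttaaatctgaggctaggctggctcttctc
CCNB2: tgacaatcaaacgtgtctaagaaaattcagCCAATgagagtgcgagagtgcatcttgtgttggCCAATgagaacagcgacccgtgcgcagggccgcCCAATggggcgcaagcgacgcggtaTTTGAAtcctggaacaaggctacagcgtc
CDC20: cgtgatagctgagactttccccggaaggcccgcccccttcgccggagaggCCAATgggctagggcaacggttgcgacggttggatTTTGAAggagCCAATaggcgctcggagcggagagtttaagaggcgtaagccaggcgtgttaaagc
PLK1: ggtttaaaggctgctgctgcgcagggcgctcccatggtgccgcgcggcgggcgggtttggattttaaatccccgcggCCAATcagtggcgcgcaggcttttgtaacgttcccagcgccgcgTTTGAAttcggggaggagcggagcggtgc
AURKB: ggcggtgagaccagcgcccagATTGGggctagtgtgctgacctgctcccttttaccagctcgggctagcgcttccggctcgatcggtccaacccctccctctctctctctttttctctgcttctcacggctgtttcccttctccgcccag
CENPE: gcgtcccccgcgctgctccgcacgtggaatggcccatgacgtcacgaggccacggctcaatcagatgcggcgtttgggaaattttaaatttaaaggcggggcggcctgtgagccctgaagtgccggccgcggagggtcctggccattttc
CENPF: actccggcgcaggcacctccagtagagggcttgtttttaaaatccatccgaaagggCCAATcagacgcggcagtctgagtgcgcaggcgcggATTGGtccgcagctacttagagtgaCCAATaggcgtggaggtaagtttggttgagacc
The stretch of CCNB2 holds 3 CCAAT matches and 1 CHR match, and that of CDK1 holds 2 of each. PLK1 has 1 of each, and CDC20 has 2 CCAAT matches and 1 CHR match. CCNB1 has 2 CCAAT matches, AURKB has 1 and CENPF has 3, all without TTTGAA or TTCGAA on either strand among these bases. CENPE has no match to any of these letters in its whole window of 300 bases.

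**Figure D1:**
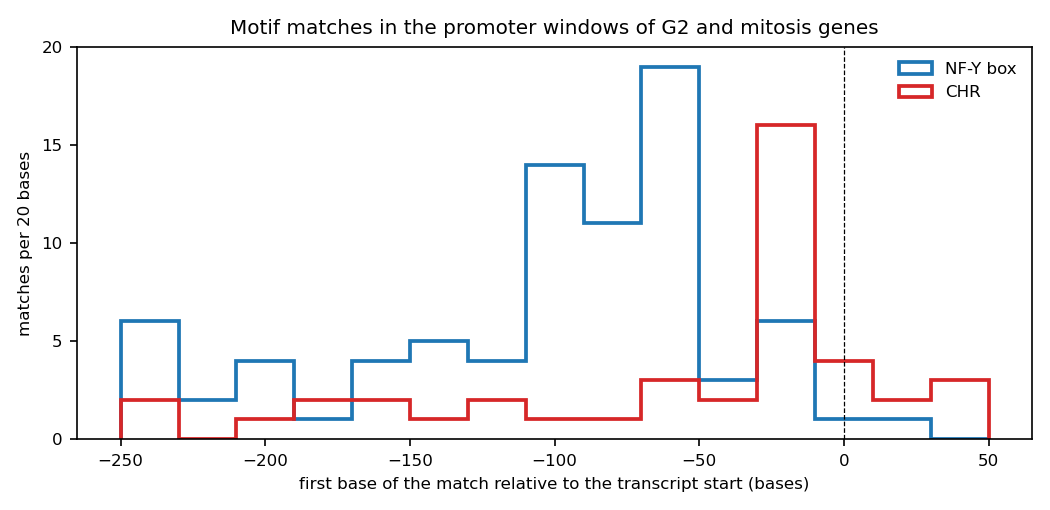
Number of motif matches in 20-base bins along the 43 promoter windows of 33 G2 and mitosis genes, by distance of the first base of the match from the transcript start (0, dashed line). The 81 NF-Y box matches (blue) have their median 90 bases before the start, and the 42 CHR matches (red) 29 bases before it.

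As a group, the members were well expressed in every library. Their median was 41.2, 37.7 and 50.3 RPKM in primed H1 with the control, uCCNE1 and pCCNE1 shRNA, 23.4, 13.8 and 18.3 RPKM in 5iLA H7, and 30.6, 30.9 and 31.3 RPKM in t2iGo H1. It was 20.3 RPKM in untreated primed H7 and 22.5 RPKM in untreated 5iLA H7. The median member lay at percentile 86.1 to 92.6 of the tested genes of its own library. Together the members held 0.616%, 0.550% and 0.807% of the summed RPKM in primed H1, 0.472%, 0.416% and 0.557% in 5iLA H7 and 0.748%, 0.738% and 0.824% in t2iGo H1. The untreated libraries gave 0.695% for primed H7 and 0.437% for 5iLA H7. The 5iLA libraries with the control shRNA or none thus had lower shares than every primed or t2iGo library. In all 3 cultures the pCCNE1 library had the highest share and the uCCNE1 library the lowest.

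**Figure D2:**
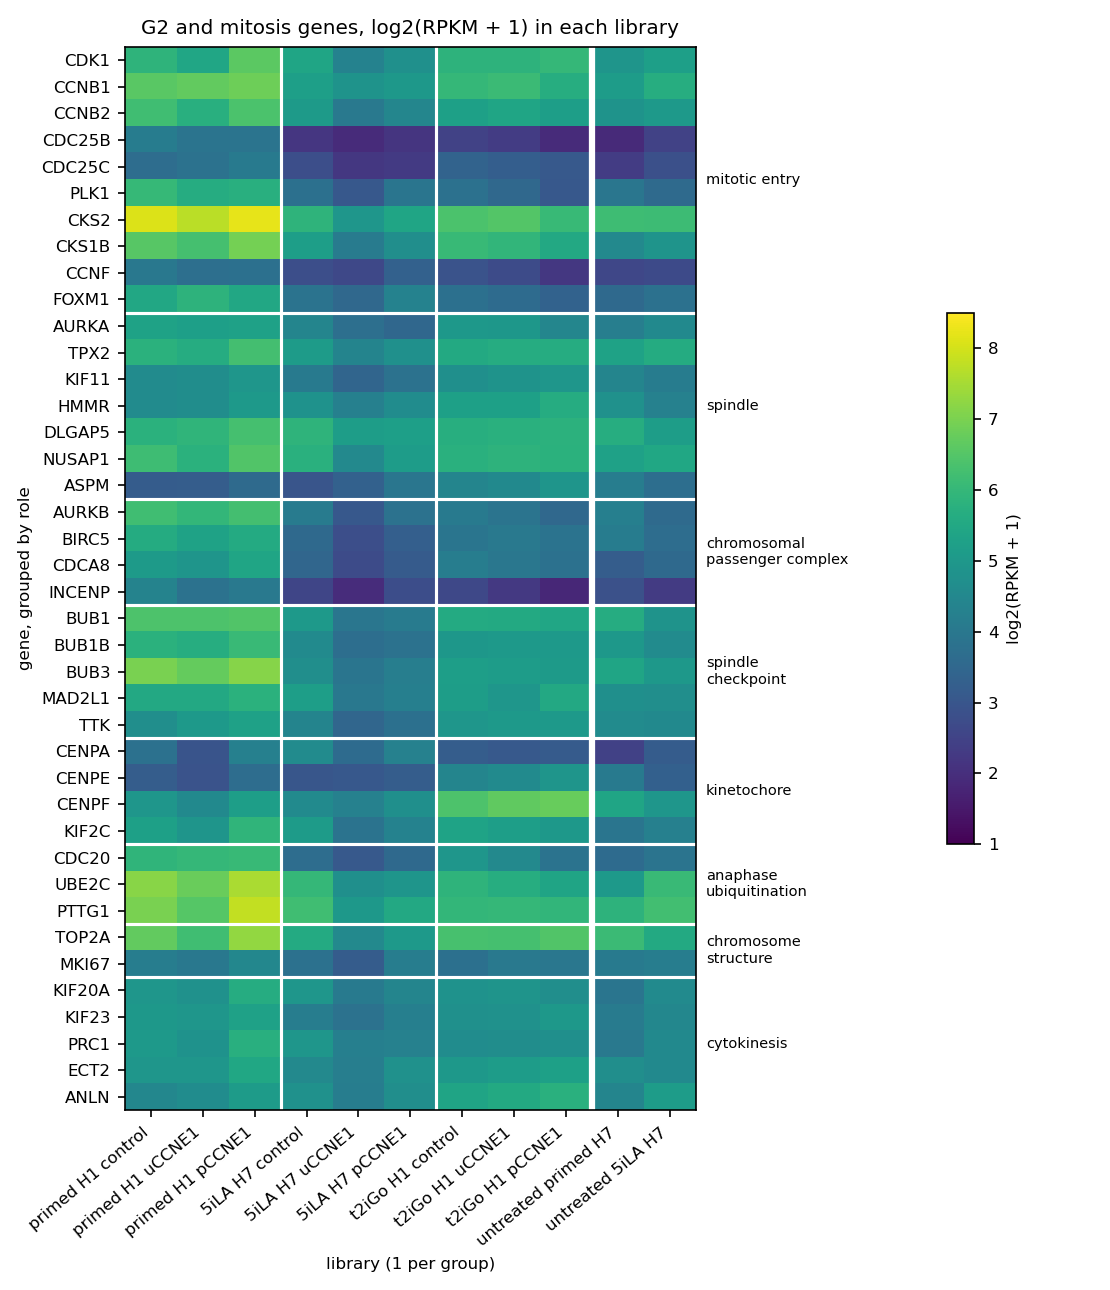
Level of each of the 40 genes, as log2(RPKM + 1), in the 11 libraries (columns, 1 per group; white lines divide the cultures and, thickest, the 2 tables), with genes ordered by role. CKS2, at 212 to 300.1 RPKM in primed H1, is the brightest row there, CENPF is brightest in t2iGo H1, and most rows are, among the shRNA libraries, darkest in 5iLA H7 with uCCNE1.

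The first comparison of cultures asked how the same line differs between the primed and the t2iGo medium. Levels were compared as log2(RPKM + 1) with limma, in a model with culture and shRNA over the 9 shRNA libraries, so the 3 shRNAs stand in for replicates. Of the 40 members, 19 were lower in t2iGo H1 and 5 were higher at an adjusted p below 0.05 (Benjamini-Hochberg over 12116 genes), where 63.0% of all tested genes were lower and 8.77% higher. The members' median difference was -0.51 and that of all genes was -0.82. When libraries were brought to the same distribution (quantile normalization), the median was 0.34 for members and 0.02 for all genes. There 19 members were higher and 10 lower, as were 4047 and 4087 of the 12116 genes. With each library scaled to the median ratio over genes, the medians were 0.35 and -0.04. There 18 members were higher and 10 lower, as were 3800 and 4341 of all genes. The sign of the members' median thus depended on the scaling. Over the 12116 genes, that median lay above the one of all genes with and without either scaling. With no filter on low values it lay below, at -0.51 against -0.34 for 20163 genes. The differences that passed with 1 sign in all 8 settings run were those of ANLN, ASPM, CENPE and CENPF, higher in t2iGo H1, and AURKB, BIRC5, BUB3, CDC20, CDC25B, CKS2, FOXM1, INCENP, PLK1 and UBE2C, lower. In RPKM as deposited, 21 members had all 3 t2iGo libraries below all 3 primed ones, where 68.1% of tested genes did, and 5 had them above, where 10.6% did.

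The second comparison set 5iLA H7 against t2iGo H1, whose libraries share a naming scheme but differ in line and medium. Here 27 of 40 members were lower in 5iLA H7, where 40.1% of tested genes were, and 1 was higher, where 14.9% were. The members' median difference was -0.79 and that of all genes -0.31. Under quantile normalization 23 members were lower and 3 higher, as were 3655 and 3106 of the 12116 genes. The medians were -0.49 for members and -0.05 for all genes. Under median-ratio scaling 19 members were lower and 3 higher, as were 3274 and 3512 of all genes, with medians of -0.34 and 0.03. Without the 2 uCCNE1 libraries of these cultures, and that of primed H1, 6 members were lower, as were 3001 of all genes. The differences of ASPM, BUB1, CENPE, CENPF, KIF11 and TOP2A passed in all 8 settings. Every other call of this comparison kept its sign but was lost in at least 1 setting. All 3 libraries of 5iLA H7 lay below all 3 of t2iGo H1 for 24 members, against 43.1% of tested genes, and above them for 1 member, against 16.4%. Values by role follow, always in the order control, uCCNE1 and pCCNE1 within a culture, with differences as log2(RPKM + 1) ± SE over the 9 libraries.

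**Figure D3:**
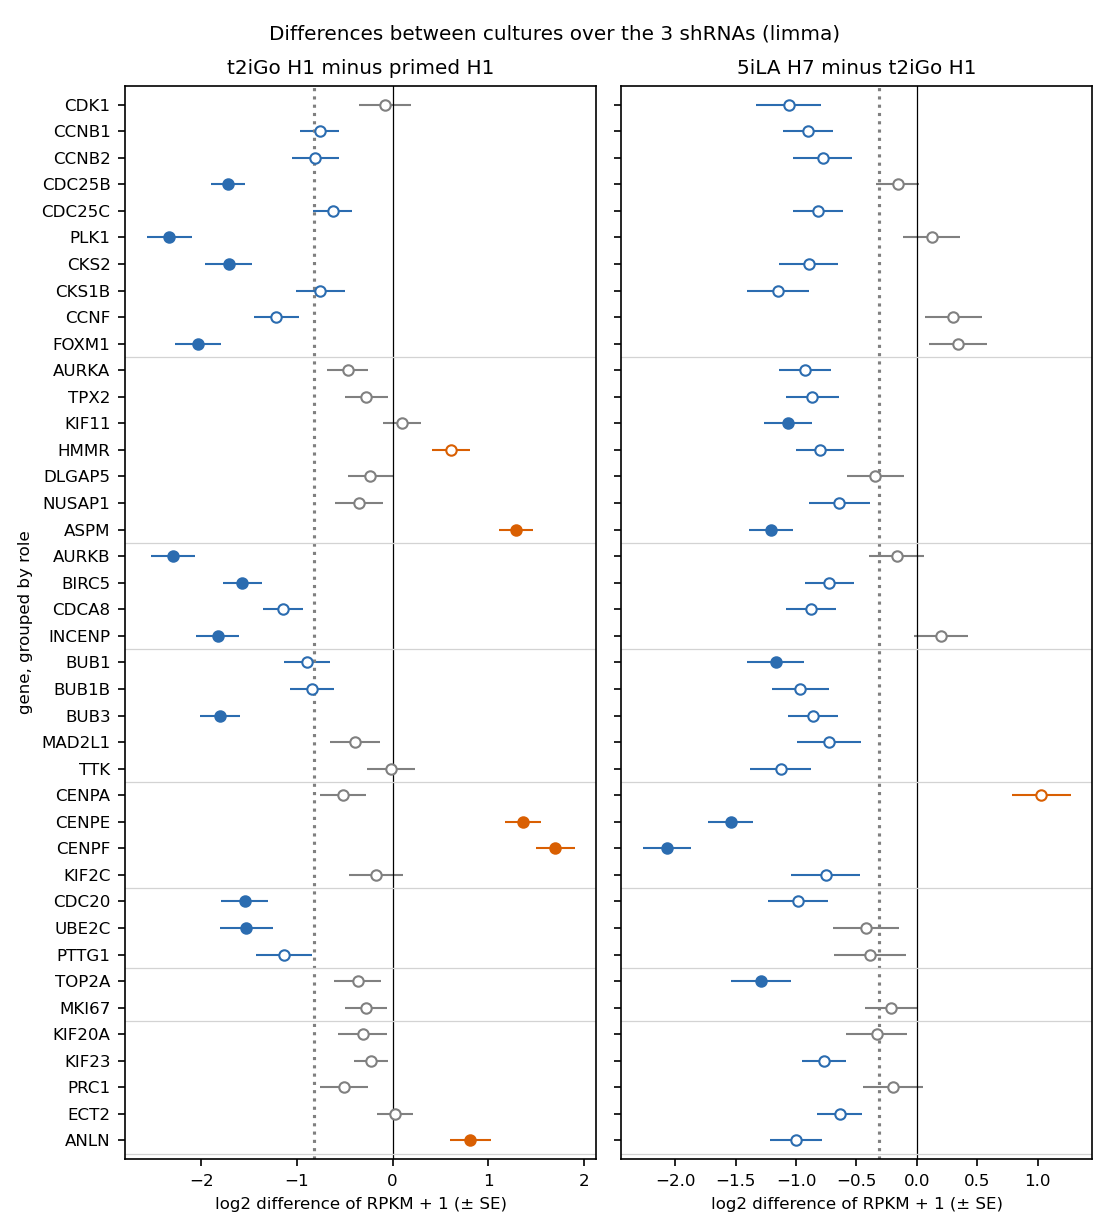
Difference in log2(RPKM + 1) ± SE (limma, over 3 shRNAs) of each gene between t2iGo H1 and primed H1 (left) and between 5iLA H7 and t2iGo H1 (right). Orange is higher, blue lower and grey not past the threshold, filled points passed with 1 sign in all 8 settings, and the dotted line is the median of all genes (-0.82 and -0.31). CENPF, CENPE and ASPM are filled on the right of the left panel and on the left of the right panel.

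Among the 10 genes of mitotic entry, 9 were lower in t2iGo H1 than in primed H1, where 63.0% of all genes were. In 5iLA H7, 6 were lower than in t2iGo H1, where 40.1% of all genes were. CDK1, the kinase that starts mitosis, had 58.2, 42.6 and 95.7 RPKM in primed H1, 41.9, 18.95 and 26.3 in 5iLA H7 and 56.5, 56.4 and 63.3 in t2iGo H1. The t2iGo and primed libraries of CDK1 overlapped (-0.08 ± 0.27, limma adjusted p = 0.806), and the 5iLA libraries lay below those of t2iGo (-1.06 ± 0.27, limma adjusted p = 0.00593). CCNB1, cyclin B1, had 94.4, 103 and 113 RPKM in primed H1, 36.5, 28.1 and 31.2 in 5iLA H7 and 63.3, 68.7 and 50.2 in t2iGo H1. Its levels did not overlap between any of the 3 cultures, with primed H1 highest and 5iLA H7 lowest, though its fall from primed to t2iGo H1 (-0.76 ± 0.21, limma adjusted p = 0.006097) turned to 0.24 and 0.16 under quantile normalization and median-ratio scaling. CCNB2, the second B-type cyclin, had 72.4, 52.2 and 81.9 RPKM in primed H1, 32.9, 15.2 and 20.6 in 5iLA H7 and 37.2, 41.4 and 36.1 in t2iGo H1. Its difference of -0.81 ± 0.25 from primed to t2iGo H1 also turned positive under both scalings.

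CKS2, a small subunit of CDK complexes, had 274, 212 and 300.1 RPKM in primed H1, 57.8, 29.8 and 41.8 in 5iLA H7 and 81.5, 89.9 and 65.6 in t2iGo H1, and was the most abundant member in each library of primed H1. It was lower in t2iGo than in primed H1 in every setting (-1.71 ± 0.24, limma adjusted p = 5.76e-05). Its relative CKS1B had 92.8, 77.8 and 120.1 RPKM in primed H1, 36.1, 16.6 and 25.1 in 5iLA H7 and 65.1, 59.9 and 45.1 in t2iGo H1, and its t2iGo minus primed difference of -0.76 ± 0.26 changed sign with the scaling. PLK1, the Polo-like kinase, had 64.7, 48.8 and 52.3 RPKM in primed H1, 12.8, 7.396 and 14.1 in 5iLA H7 and 12.9, 10.7 and 7.303 in t2iGo H1. All primed H1 values of PLK1 were 48.8 RPKM or more and all others in the shRNA libraries 14.1 RPKM or less, with the largest fall from primed to t2iGo H1 of any member (-2.34 ± 0.24, limma adjusted p = 4.20e-06). FOXM1, a transcription factor for this set of genes, followed the same order, with 43.8, 56.3 and 44.3 RPKM in primed H1, 13.6, 10.7 and 19.03 in 5iLA H7 and 12.5, 11.3 and 9.17 in t2iGo H1 and a difference of -2.04 ± 0.24 between t2iGo and primed H1 (limma adjusted p = 1.26e-05). Between 5iLA H7 and t2iGo H1, neither PLK1 (0.12 ± 0.24) nor FOXM1 (0.34 ± 0.24) passed (limma adjusted p = 0.686 and 0.248).

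The CDC25 phosphatases, which remove the inhibitory phosphates from CDK1, were among the members with the lowest levels. CDC25B had 16.8, 13.7 and 13.7 RPKM in primed H1, 3.54, 2.76 and 3.505 in 5iLA H7 and 4.56, 4.09 and 2.79 in t2iGo H1, and was lower in t2iGo than in primed H1 in every setting (-1.72 ± 0.18, limma adjusted p = 5.22e-06). CDC25C had 11.8, 13.3 and 15.99 RPKM in primed H1, 6.002, 3.602 and 3.798 in 5iLA H7 and 9.44, 8.48 and 7.51 in t2iGo H1, and its difference of -0.63 ± 0.21 changed sign under both scalings. CCNF, cyclin F, a substrate receptor of a ubiquitin ligase, had 15.01, 12.3 and 12.5 RPKM in primed H1, 5.91, 5.15 and 9.13 in 5iLA H7 and 6.51, 5.61 and 3.62 in t2iGo H1. It was lower in t2iGo than in primed H1 (-1.22 ± 0.24, limma adjusted p = 6.65e-04), with the same sign in all 8 settings but not past the threshold in all of them.

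Of the 7 spindle genes, 2 were higher and 0 lower in t2iGo than in primed H1 (8.77% and 63.0% of all genes). In 5iLA H7, 6 were lower than in t2iGo H1 (40.1% of all genes). ASPM, a protein of the spindle poles, had 8.04, 8.26 and 11.2 RPKM in primed H1, 6.82, 9.11 and 14.2 in 5iLA H7 and 20.2, 22.6 and 28.8 in t2iGo H1. Every t2iGo value of ASPM was above every other value in the shRNA table, with a difference of 1.29 ± 0.18 from primed H1 and of -1.21 ± 0.18 for 5iLA H7 minus t2iGo H1 (limma adjusted p = 5.25e-05 and 2.06e-04). HMMR, which binds hyaluronan and spindle microtubules, had 23.4, 24.4 and 32.1 RPKM in primed H1, 27.4, 18.2 and 24.1 in 5iLA H7 and 37.3, 37.1 and 49.02 in t2iGo H1, with differences of 0.61 ± 0.20 and -0.81 ± 0.20 for the same comparisons (limma adjusted p = 0.0166 and 0.00528), neither of which passed in every setting. KIF11, the motor that pushes spindle poles apart, had 23.6, 24.5 and 29.8 RPKM in primed H1, 15.6, 9.85 and 13.3 in 5iLA H7 and 25.9, 27.98 and 29.4 in t2iGo H1. Its t2iGo and primed values overlapped, and its 5iLA values were lower in every setting (-1.07 ± 0.20, limma adjusted p = 9.30e-04).

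NUSAP1, which bundles spindle microtubules, had 70.8, 54.3 and 88.01 RPKM in primed H1, 53.1, 22.3 and 34.6 in 5iLA H7 and 52.8, 56.1 and 54.5 in t2iGo H1, and DLGAP5, which stabilises fibres at the kinetochore, had 54.4, 59.3 and 76.9 RPKM in primed H1, 57.5, 34.9 and 36.3 in 5iLA H7 and 50.9, 53.1 and 55.9 in t2iGo H1. These are the most abundant spindle genes, and neither differed past the threshold between t2iGo and primed H1 (limma adjusted p = 0.233 and 0.387). Aurora kinase A (AURKA), which matures the spindle poles, had 38.7, 36.6 and 38.1 RPKM in primed H1, 20.1, 12.3 and 10.4 in 5iLA H7 and 31.1, 30.3 and 20.9 in t2iGo H1. TPX2, its activator, had 53.9, 48.7 and 74.9 RPKM in primed H1, 33.5, 19.7 and 26.2 in 5iLA H7 and 46.4, 48.6 and 48.97 in t2iGo H1. The pair was lower in 5iLA H7 than in t2iGo H1, with differences of -0.93 ± 0.21 for AURKA and -0.87 ± 0.22 for TPX2 (limma adjusted p = 0.00340 and 0.00614), and did not pass between t2iGo and primed H1 (limma adjusted p = 0.0678 and 0.284).

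All 4 genes of the chromosomal passenger complex were lower in t2iGo than in primed H1, where 63.0% of all genes were. The complex corrects faulty attachments of chromosomes and guides cytokinesis. AURKB, the kinase of the complex, had 72.6, 60.9 and 75.2 RPKM in primed H1, 16.2, 7.399 and 13.3 in 5iLA H7 and 16.1, 13.7 and 10.7 in t2iGo H1. The 3 primed values of AURKB stood far above the other 6, with a difference of -2.29 ± 0.23 (limma adjusted p = 4.02e-06) and no difference past the threshold between 5iLA H7 and t2iGo H1 (-0.17 ± 0.23, limma adjusted p = 0.563). BIRC5, survivin, had 48.2, 38.8 and 47.4 RPKM in primed H1, 10.9, 6.03 and 8.57 in 5iLA H7 and 14.2, 15.4 and 13.5 in t2iGo H1. INCENP, the scaffold, had 19.3, 13.1 and 15.4 RPKM in primed H1, 4.97, 2.85 and 5.82 in 5iLA H7 and 5.195, 3.70 and 2.56 in t2iGo H1. Both fell from primed to t2iGo H1 in every setting, with differences of -1.57 ± 0.20 and -1.83 ± 0.22 (limma adjusted p = 2.74e-05 and 1.72e-05). CDCA8, borealin, had 32.7, 29.3 and 41.5 RPKM in primed H1, 10.04, 5.51 and 7.99 in 5iLA H7 and 17.2, 14.6 and 13.04 in t2iGo H1, with a difference of -1.14 ± 0.21 that kept its sign but did not pass in every setting.

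The 5 spindle checkpoint genes were all lower in 5iLA H7 than in t2iGo H1, where 40.1% of all genes were. No other role group had every member pass in 1 direction in that comparison. BUB1, the checkpoint kinase, had 84.1, 83.1 and 86.8 RPKM in primed H1, 31.5, 14.3 and 16.3 in 5iLA H7 and 47.1, 46.03 and 42.1 in t2iGo H1. Its 5iLA values lay below all others, with a difference of -1.17 ± 0.24 from t2iGo H1 (limma adjusted p = 0.00165), while its t2iGo minus primed difference of -0.90 ± 0.24 turned to 0.07 and 0.02 under the 2 scalings. BUB3, which carries BUB1 and BUB1B to kinetochores, had 125, 104 and 140.2 RPKM in primed H1, 25.3, 14.1 and 17.6 in 5iLA H7 and 35.9, 34.2 and 33.1 in t2iGo H1, and was lower in t2iGo than in primed H1 in every setting (-1.80 ± 0.21, limma adjusted p = 1.18e-05). BUB1B, the inhibitor of CDC20, had 54.2, 49.8 and 66.6 RPKM in primed H1, 23.1, 12.1 and 13.1 in 5iLA H7 and 30.1, 31.5 and 31.5 in t2iGo H1, and its t2iGo minus primed difference of -0.84 ± 0.23 changed sign with scaling.
MAD2L1, which holds CDC20 inactive, had 45.2, 44.8 and 53.8 RPKM in primed H1, 36.2, 14.9 and 17.99 in 5iLA H7 and 35.1, 29.7 and 45.0 in t2iGo H1. TTK, the kinase that recruits the checkpoint, had 25.1, 32.5 and 38.2 RPKM in primed H1, 19.8, 10.1 and 12.7 in 5iLA H7 and 29.7, 31.9 and 31.6 in t2iGo H1. The 5iLA minus t2iGo differences were -0.96 ± 0.23 for BUB1B, -0.86 ± 0.21 for BUB3, -0.73 ± 0.26 for MAD2L1 and -1.13 ± 0.25 for TTK (limma adjusted p = 0.00464, 0.00472, 0.0354 and 0.00275). In this comparison BUB1 passed in all 8 settings, while these 4 genes kept their sign but lost the call in at least 1, with a highest limma adjusted p = 0.0861, 0.0914, 0.285 and 0.0588.

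The 4 kinetochore genes did not move together. CENPF, a large protein of the outer kinetochore, had 29.5, 22.7 and 36.05 RPKM in primed H1, 22.9, 18.6 and 25.5 in 5iLA H7 and 83.2, 101 and 107 in t2iGo H1. The t2iGo values of CENPF were 83.2 RPKM or more and the other 6 were 36.05 RPKM or less, with differences of 1.70 ± 0.20 from primed H1 and -2.07 ± 0.20 for 5iLA H7 minus t2iGo H1, the largest rise of any member in the first comparison and the largest fall in the second (limma adjusted p = 1.25e-05 and 7.87e-06). CENPE, the kinesin that brings chromosomes to the spindle equator, had 8.24, 6.596 and 11.8 RPKM in primed H1, 6.97, 7.34 and 8.35 in 5iLA H7 and 20.4, 23.0 and 28.9 in t2iGo H1, with differences of 1.37 ± 0.18 and -1.54 ± 0.18 (limma adjusted p = 3.83e-05 and 3.94e-05). CENPA, the histone H3 variant that marks centromeres, had 12.8, 6.77 and 18.4 RPKM in primed H1, 23.8, 11.4 and 18.8 in 5iLA H7 and 8.19, 7.57 and 7.99 in t2iGo H1. It was the 1 member higher in 5iLA H7 than in t2iGo H1 (1.03 ± 0.24, limma adjusted p = 0.00373), a call that was lost without the control libraries (limma adjusted p = 0.0592). KIF2C, a kinesin that takes microtubules apart, had 37.2, 29.3 and 58.9 RPKM in primed H1, 33.3, 13.6 and 18.9 in 5iLA H7 and 39.5, 36.04 and 30.99 in t2iGo H1, and was lower in 5iLA H7 than in t2iGo H1 (-0.76 ± 0.28, limma adjusted p = 0.0394).

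The 3 genes of anaphase ubiquitination were all lower in t2iGo than in primed H1, where 63.0% of all genes were. UBE2C, the E2 enzyme of the anaphase-promoting complex, had 143, 110.5 and 186 RPKM in primed H1, 62.9, 25.8 and 29.4 in 5iLA H7 and 58.1, 49.7 and 40.7 in t2iGo H1, and a difference of -1.53 ± 0.28 (limma adjusted p = 3.62e-04). CDC20, the activator of the complex, had 59.3, 63.05 and 65.1 RPKM in primed H1, 11.95, 7.61 and 10.8 in 5iLA H7 and 29.5, 21.9 and 13.6 in t2iGo H1. Its values did not overlap between the 3 cultures, with differences of -1.55 ± 0.25 from primed to t2iGo H1 and -0.98 ± 0.25 for 5iLA H7 minus t2iGo H1 (limma adjusted p = 1.57e-04 and 0.00612). PTTG1, securin, the protein whose destruction frees separase, had 125, 91.2 and 222 RPKM in primed H1, 73.1, 31.2 and 44.8 in 5iLA H7 and 62.04, 62.6 and 60.1 in t2iGo H1, and a difference of -1.14 ± 0.30 from primed to t2iGo H1 (limma adjusted p = 0.00457). That difference was -0.099 and -0.21 under quantile normalization and median-ratio scaling (limma adjusted p = 0.715 and 0.441), and -0.77 without the pCCNE1 libraries (limma adjusted p = 0.0623). PTTG1 and AURKA have near-identical gene copies elsewhere in the genome, and how shared reads were counted is not given, so their levels are less certain.

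Of the 2 genes of chromosome structure, TOP2A, which untangles sister DNA, had 103, 72.5 and 153 RPKM in primed H1, 46.7, 22.3 and 32.6 in 5iLA H7 and 78.5, 77.05 and 87.7 in t2iGo H1. It was lower in 5iLA H7 than in t2iGo H1 in every setting (-1.29 ± 0.25, limma adjusted p = 0.00111), and its t2iGo and primed values overlapped. MKI67, the Ki-67 protein that coats mitotic chromosomes, had 17.1, 14.9 and 21.1 RPKM in primed H1, 12.96, 7.996 and 17.2 in 5iLA H7 and 12.7, 15.5 and 14.8 in t2iGo H1. Its values overlapped between all 3 cultures (limma adjusted p = 0.273 for t2iGo minus primed H1 and 0.433 for 5iLA H7 minus t2iGo H1).

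Among the 5 cytokinesis genes, ANLN, anillin, a scaffold of the contractile ring, had 21.2, 24.04 and 33.4 RPKM in primed H1, 26.9, 17.1 and 24.8 in 5iLA H7 and 40.4, 46.01 and 52.7 in t2iGo H1. It was the only one higher in t2iGo than in primed H1 (0.82 ± 0.21, limma adjusted p = 0.00477), and it was lower in 5iLA H7 than in t2iGo H1 (-1.0003 ± 0.21, limma adjusted p = 0.00217). ECT2, which activates RhoA at the cell equator, had 29.99, 29.6 and 42.8 RPKM in primed H1, 21.98, 17.3 and 26.7 in 5iLA H7 and 31.3, 34.4 and 37.6 in t2iGo H1, and KIF23, a motor of the central spindle, had 30.8, 29.8 and 38.3 RPKM in primed H1, 17.1, 13.2 and 18.1 in 5iLA H7 and 26.3, 26.5 and 31.03 in t2iGo H1. Both were lower in 5iLA H7 than in t2iGo H1, with differences of -0.64 ± 0.19 and -0.77 ± 0.18 (limma adjusted p = 0.0139 and 0.00387). KIF20A, another motor of the central spindle, had 29.5, 26.7 and 48.9 RPKM in primed H1, 29.4, 15.9 and 20.5 in 5iLA H7 and 27.6, 28.7 and 24.98 in t2iGo H1, and PRC1, which bundles its microtubules, had 32.4, 27.3 and 51.7 RPKM in primed H1, 29.7, 17.9 and 18.6 in 5iLA H7 and 24.2, 24.8 and 25.6 in t2iGo H1. Neither passed in either comparison of cultures, and the highest value of each fell in primed H1 with pCCNE1.

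Ratios between members within a library do not change when that library is scaled by a single factor. The pairs were chosen after the values above were seen, so they describe the pattern and do not test it. CENPF over AURKB was 0.406, 0.372 and 0.479 in primed H1, 1.41, 2.51 and 1.92 in 5iLA H7, and 5.16, 7.36 and 9.999 in t2iGo H1. It was 2.32 in untreated primed H7 and 2.69 in untreated 5iLA H7, so primed H7 did not share the low ratio of primed H1. CENPE over PLK1 was 0.127, 0.135 and 0.226 in primed H1, 0.546, 0.992 and 0.594 in 5iLA H7, and 1.58, 2.16 and 3.95 in t2iGo H1, with 1.10 in untreated primed H7 and 0.803 in untreated 5iLA H7. CCNB1 over CDK1, by contrast, stayed between 0.793 and 2.41 in all libraries. In both of the first 2 ratios the gene on top has a much longer transcript (10307 bases for CENPF and 8612 for CENPE) than the one below it (1167 for AURKB and 2227 for PLK1). Across the 39 members with a known transcript length, Spearman's rho between length and the t2iGo minus primed difference was 0.40, and it was 0.25 across all 11598 genes with a length. For 5iLA H7 minus t2iGo H1 it was -0.22 for members and -0.18 for all genes. These coefficients are across genes that share the same libraries, and the part of transcript length in the ratios was not tested.

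**Figure D4:**
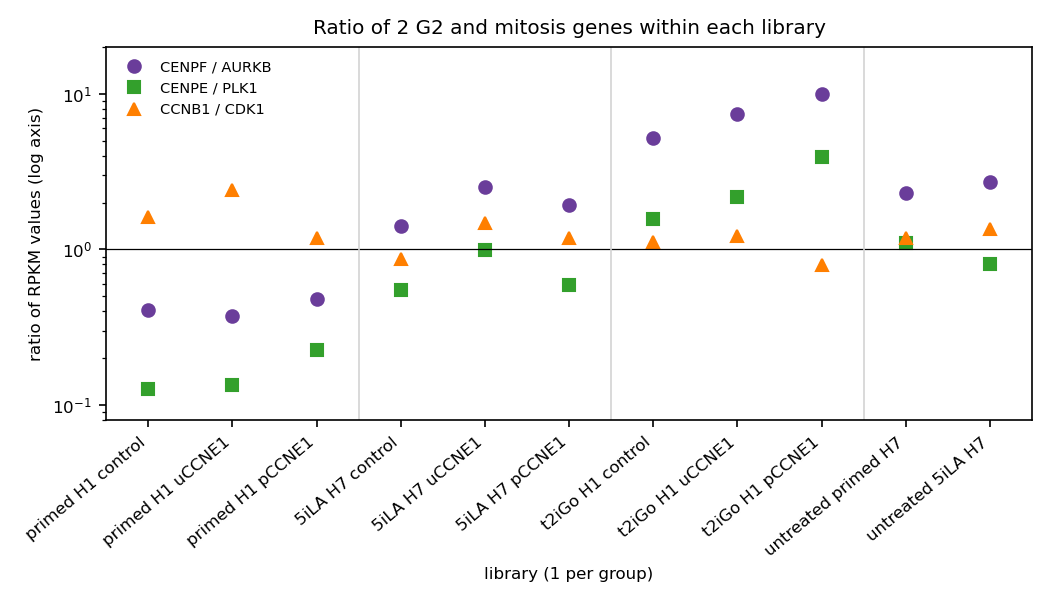
Ratio of RPKM values of 3 gene pairs within each library (log axis; 1 point per library and pair; the line marks equal RPKM). CENPF over AURKB lies between 0.372 and 0.479 in primed H1 and between 5.16 and 9.999 in t2iGo H1, and untreated primed H7 lies at 2.32, while CCNB1 over CDK1 lies between 0.793 and 2.41.

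The shRNA comparisons asked whether the members respond to loss of CCNE1 transcripts over the 3 cultures, which stand in for replicates. For uCCNE1 against control, 0 of 40 members passed, as did 0 of all 12116 genes by limma (0% higher and 0% lower). Of the members, 39 lay below 0, where 73.9% of all genes did, with a median of -0.31 against -0.14 for all genes. The lowest were CENPA (-0.64 ± 0.24), UBE2C (-0.61 ± 0.28) and KIF2C (-0.57 ± 0.28), and the 1 member above 0 was ASPM (0.19 ± 0.18), with limma adjusted p = 0.412, 0.485, 0.517 and 0.742. At an unadjusted p below 0.05 there were 3 members lower (CENPA, UBE2C and INCENP) and 0 higher, where 9.14% and 1.06% of all genes were. Under quantile normalization and median-ratio scaling, 12 and 9 members lay above 0, with medians of -0.13 and -0.15 beside 0.01 and -0.01 for all genes. Without the 5iLA H7 libraries 11 lay above 0 and the median was -0.10, beside -0.03 for all genes. The share of all genes above 0 was not computed for these settings. CDK1 was at -0.52 ± 0.27 and CCNB1 at -0.04 ± 0.21 (limma adjusted p = 0.535 and 0.955).

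For pCCNE1 against control, again 0 members passed and 0 genes overall (0% in each direction). The members were spread around 0, with 18 above and 22 below (26.1% and 73.8% of all genes) and a median of -0.09 against -0.15. ASPM had the highest difference (0.63 ± 0.18, limma adjusted p = 0.203), followed by CENPE (0.39 ± 0.18), and AURKA the lowest (-0.49 ± 0.21, limma adjusted p = 0.318), followed by UBE2C (-0.40 ± 0.28). ASPM and AURKA were the 2 members with an unadjusted p below 0.05, reached by 1.61% of genes upwards and 13.2% downwards. CDK1 was at 0.07 ± 0.27 and CCNB1 at -0.10 ± 0.21 (limma adjusted p = 0.922 and 0.855). The median turned to 0.12 and 0.08 under the 2 scalings, to 0.18 without the 5iLA H7 libraries, and to 0.00 without those of t2iGo H1.

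Set directly against each other, the 2 CCNE1 shRNAs differed in the same direction for most members, though 0 of 40 passed, as did 0 of all genes (0% in each direction). In pCCNE1 minus uCCNE1, 36 members lay above 0, where 45.7% of all genes did, with a median of 0.26 against -0.02. The count was 36 under both scalings too, and 30 to 39 when 1 culture was left out. The share of all genes above 0 was not computed for these settings. The median of all genes was -0.009 and -0.02 under the scalings, and -0.05 to 0.03 when 1 culture was left out. The members' median was 0.47 without the t2iGo H1 libraries and 0.17 without those of primed H1. The highest differences were those of CENPA (0.69 ± 0.24), TOP2A (0.60 ± 0.25) and CDK1 (0.59 ± 0.27), each at a limma adjusted p = 0.9896. The lowest were those of AURKA (-0.23 ± 0.21, limma adjusted p = 0.9896) and CCNB1 (-0.05 ± 0.21, limma adjusted p = 0.993). An unadjusted p below 0.05 was reached by 4 members, all higher (ASPM, CENPA, CENPE and TOP2A), against 1.83% of all genes higher and 2.25% lower. By role, all members lay above 0 in the chromosomal passenger complex, spindle checkpoint, kinetochore, chromosome structure and cytokinesis groups.

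Within single cultures there is 1 library on each side and no test. A size of at least 1 on the log2(RPKM + 1) scale was used to count large differences. In primed H1, the members' median was -0.21 with uCCNE1 (all genes -0.07), with 30 below 0 (57.2% of all genes), and 0.32 with pCCNE1 (all genes 0.01), with 34 above 0 and 6 below (50.9% and 48.4% of all genes). No member reached a size of 1 with either shRNA, where 0.619% of all genes did upwards and 2.82% downwards with uCCNE1, and 0.924% and 3.61% with pCCNE1. PTTG1 was furthest from control with pCCNE1, at 177% of its control RPKM, and CDK1 was at 164%, KIF2C at 158% and TOP2A at 149%. With uCCNE1 the same genes were at 72.7%, 73.2%, 78.7% and 70.5% of control, and CENPA was lowest at 52.9%. These medians kept their sign under both scalings.

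In 5iLA H7, the members' median with uCCNE1 was -0.73 (all genes -0.34), and 38 members lay below 0 (78.9% of all genes). A size of 1 was reached upwards by 0 members and downwards by 12, where 0.528% and 4.94% of all genes did: CDK1, CCNB2, CKS1B, NUSAP1, AURKB, BUB1, MAD2L1, CENPA, KIF2C, UBE2C, PTTG1 and TOP2A. Under quantile normalization and median-ratio scaling this count was 0, with medians of -0.26 and -0.31 and 31 members below 0 in each. The medians of all genes were -0.005 and -0.01 there, and the share of all genes below 0 was not computed. KIF2C was at 40.7% of control, UBE2C at 41.04%, MAD2L1 at 41.2%, CDK1 at 45.2% and CCNB1 at 77.2%. ASPM and CENPE were the 2 members above control, at 134% and 105%. With pCCNE1 the median was -0.34 (all genes -0.30), with 30 members below 0 (76.1% of all genes), and it turned to 0.10 and 0.05 under the 2 scalings. UBE2C alone reached a size of 1, at 46.7% of control, where 4.90% of all genes did downwards, and ASPM was highest at 209%.

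In t2iGo H1, the members were centred on 0 with uCCNE1, with 20 above and 20 below (50.1% and 49.1% of all genes). CDC20 was lowest at 74.2% of control, CENPF was highest, and CDK1 was at 99.8%. With pCCNE1 the median was -0.04 (all genes -0.11), with 22 members below 0 (62.7% of all genes). CDC20 reached a size of 1 there, at 46.1% of control, where 2.72% of all genes did downwards, and ASPM was at 143%, CENPE at 142% and CDK1 at 112%. In this culture 9 of 10 genes of mitotic entry and all 4 of the chromosomal passenger complex lay below control with pCCNE1 (62.7% of all genes). Above it lay 6 of 7 spindle genes and 4 of 5 cytokinesis genes (36.4% of all genes). Spearman's rho with transcript length was 0.49 over 39 members and 0.21 over all genes in this pair. The library of t2iGo H1 with pCCNE1 is also the shallowest, has the lowest POU5F1 (13.6 RPKM, against 34.6 with the control shRNA) and the highest COL3A1 (136.5 against 47.3) and LUM (71.5 against 13.9) of that culture. The part of these in the result was not tested.

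**Figure D5:**
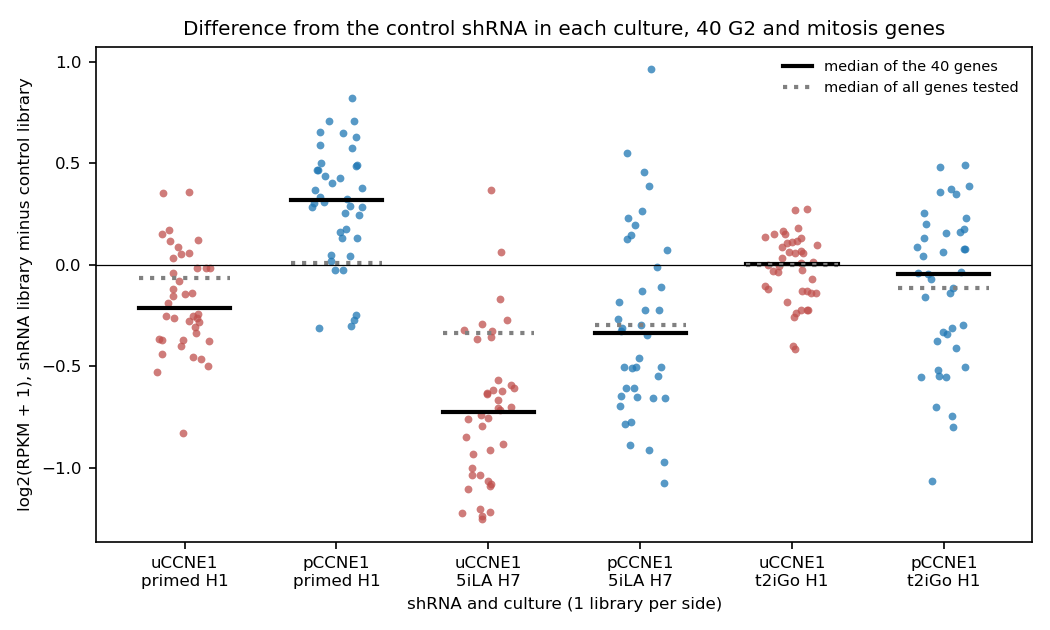
Difference in log2(RPKM + 1) between each CCNE1 shRNA library and the control library of its culture for the 40 genes (points), with their median (black) and that of all 12116 tested genes (dotted); 1 library per side. The members' medians are -0.21, 0.32, -0.73, -0.34, 0.00 and -0.04 from left to right, and lie furthest from the dotted line for uCCNE1 in 5iLA H7 and pCCNE1 in primed H1.

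Whether the shRNA effect in 5iLA H7 differed from the mean of that in the other 2 cultures was tested with added terms in the model, which leaves 2 residual degrees of freedom. This comparison was chosen with earlier results of these data known. For uCCNE1, 0 members passed, where 0.0248% of all genes did upwards and 0.00825% downwards. The members' median was -0.67 against -0.30 for all genes, with 37 of 40 below 0, where 74.7% of genes were. At an unadjusted p below 0.05 there were 9 members lower and 0 higher, where 10.5% and 0.743% of genes were. Of these 9, 4 were the checkpoint genes BUB1, BUB1B, MAD2L1 and TTK. Another 4 were the spindle genes KIF11, HMMR, DLGAP5 and NUSAP1, and the last was ANLN. TTK was lowest (-1.14 ± 0.30), followed by MAD2L1 (-1.10 ± 0.26), both at a limma adjusted p = 0.442, and ASPM was highest (0.28 ± 0.24, limma adjusted p = 0.625). Under quantile normalization and median-ratio scaling the numbers lower at that p were 0 and 2. For pCCNE1, 0 members passed, where 0% of all genes did upwards and 0.0165% downwards, with 32 of 40 below 0 (65.7% of all genes) and a median of -0.54 against -0.22. Here 7 members were lower and 1 higher at an unadjusted p below 0.05, where 12.0% and 2.99% of genes were. MAD2L1 was lowest (-1.27 ± 0.26, limma adjusted p = 0.301) and CCNF highest (1.03 ± 0.32, limma adjusted p = 0.303).

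The untreated H7 libraries compare primed and 5iLA cells of 1 line without virus, with 1 library per side and no test. The members' median of 5iLA minus primed was 0.13, below the 0.23 of all genes, with 22 members above 0 and 18 below (66.1% and 33.9% of all genes). It turned to -0.16 and -0.07 under quantile normalization and median-ratio scaling. UBE2C reached a size of 1 upwards, where 11.0% of genes did, at 32.1 RPKM primed and 66.8 RPKM in 5iLA, and no member did downwards, where 3.94% of genes did. CDK1 had 28.98 RPKM primed and 36.7 RPKM in 5iLA, and CCNB1 had 34.1 RPKM primed and 50.03 RPKM in 5iLA. BUB1 was lowest relative to primed cells, at 49.5 RPKM primed and 28.03 RPKM in 5iLA, followed by CENPE at 15.8 RPKM primed and 8.81 RPKM in 5iLA. AURKB had 17.9 RPKM primed and 10.96 RPKM in 5iLA, CENPF had 41.6 RPKM primed and 29.5 RPKM in 5iLA and TOP2A had 68.6 RPKM primed and 46.4 RPKM in 5iLA. CENPA had 4.495 RPKM primed and 8.14 RPKM in 5iLA, and ANLN had 20.5 RPKM primed and 34.3 RPKM in 5iLA. By role, all 5 checkpoint genes lay below primed cells (33.9% of all genes), though MAD2L1 and TTK were close to them, at 98.6% and 96.0% of primed RPKM. All 3 genes of anaphase ubiquitination and 8 of 10 of mitotic entry lay above primed cells (66.1% of all genes).

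A further list of 58 G2 and mitosis genes gave the wider background of the pathway. Of these, 27 were lower and 5 higher in t2iGo than in primed H1, where 63.0% and 8.77% of all tested genes were, and their median was -0.43 (all genes -0.82). In 5iLA H7, 33 were lower and 2 higher than in t2iGo H1, where 40.1% and 14.9% of all genes were, and their median was -0.64 (all genes -0.31). Those with the smallest p in the first comparison were TACC3, which stabilises spindle microtubules, at -2.60 ± 0.22, FAM64A at -2.17 ± 0.20 and the kinesin KIF22 at -1.91 ± 0.18 (limma adjusted p = 1.10e-06, 1.90e-06 and 2.38e-06). In the second they were FAM64A at -2.57 ± 0.20, the kinesin KIF14 at -1.71 ± 0.17 and the kinetochore gene CENPQ at -1.79 ± 0.19 (limma adjusted p = 1.40e-06, 9.15e-06 and 1.77e-05). FAM64A had 58.7, 60.1 and 56.7 RPKM in primed H1, 2.103, 0.785 and 1.02 in 5iLA H7 and 14.4, 11.9 and 10.7 in t2iGo H1, so its levels did not overlap between cultures. None of the 58 passed in a shRNA comparison by limma. At an unadjusted p below 0.05, 3 were lower for uCCNE1 and 2 for pCCNE1, where 9.14% and 13.2% of all genes were. In pCCNE1 minus uCCNE1, 44 of 58 lay above 0 (45.7% of all genes). There 5 were higher at that p (1.83% of all genes), among them PBK, a mitotic kinase (0.89 ± 0.28, limma adjusted p = 0.9896).

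Among the regulators of the programme (16 genes of MuvB, DREAM, E2F, B-MYB and NF-Y), 11 were lower and 3 higher in t2iGo than in primed H1 (63.0% and 8.77% of all genes), and 10 were lower and 2 higher in 5iLA H7 than in t2iGo H1 (40.1% and 14.9% of all genes). MYBL2, the B-MYB factor that joins MuvB at CHR promoters, had 63.4, 67.2 and 36.1 RPKM in primed H1, 47.6, 27.5 and 46.5 in 5iLA H7 and 12.3, 9.57 and 7.77 in t2iGo H1. It was lower in t2iGo than in primed H1 (-2.35 ± 0.26) and higher in 5iLA H7 than in t2iGo H1 (1.91 ± 0.26; limma adjusted p = 9.09e-06 and 1.13e-04). The repressors E2F4 and E2F5 differed too: E2F4 had 35.02, 36.97 and 25.4 RPKM in primed H1, 13.4, 9.53 and 10.3 in 5iLA H7 and 9.64, 8.25 and 4.36 in t2iGo H1, and E2F5 had 25.8, 34.2 and 35.7 RPKM in primed H1, 2.005, 2.94 and 3.74 in 5iLA H7 and 20.1, 20.6 and 20.2 in t2iGo H1. E2F4 was lower in t2iGo than in primed H1 (-2.03 ± 0.21, limma adjusted p = 4.52e-06), and E2F5 was lower in 5iLA H7 than in t2iGo H1 (-2.48 ± 0.19, limma adjusted p = 1.24e-06). For t2iGo minus primed H1, TFDP1, the partner of E2F factors, followed by p (-1.54 ± 0.20, limma adjusted p = 3.32e-05). None of the 16 passed in a shRNA comparison by limma. At an unadjusted p below 0.05 there were 0 for uCCNE1 and 1 lower for pCCNE1 (E2F4, -0.60 ± 0.21, limma adjusted p = 0.235). Of all genes, 9.14% were lower at that p with uCCNE1 and 13.2% with pCCNE1.

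The tested inhibitors of mitotic entry and of the anaphase-promoting complex were 6 of 7 listed. FBXO5, the inhibitor EMI1, had 20.8, 20.2 and 26.5 RPKM in primed H1, 5.94, 4.57 and 6.73 in 5iLA H7 and 21.3, 20.1 and 22.9 in t2iGo H1, and was lower in 5iLA H7 than in t2iGo H1 (-1.75 ± 0.17, limma adjusted p = 1.06e-05). CDKN1A, the CDK inhibitor p21, had 0.928, 0.616 and 0.628 RPKM in primed H1, 7.299, 3.696 and 4.48 in 5iLA H7 and 1.19, 1.998 and 2.06 in t2iGo H1. It was higher in 5iLA H7 than in t2iGo H1 (1.14 ± 0.23, limma adjusted p = 0.00149). In untreated H7 it had 1.26 RPKM primed and 21.2 RPKM in 5iLA. PKMYT1, a kinase that inhibits CDK1, was lower in t2iGo than in primed H1 (-2.14 ± 0.30, limma adjusted p = 5.29e-05). By count, 2 inhibitors were lower and 1 higher in t2iGo than in primed H1 (63.0% and 8.77% of all genes), and 3 were lower and 1 higher in 5iLA H7 than in t2iGo H1 (40.1% and 14.9% of all genes). For the shRNAs against control, none passed by limma. At an unadjusted p below 0.05 there was 1, PKMYT1 with pCCNE1 (-0.68 ± 0.30, limma adjusted p = 0.322), where 13.2% of all genes were lower.

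Of the 13 genes of anaphase-promoting complex subunits and FZR1, its activator in late mitosis and G1, 7 were lower and 0 higher in t2iGo than in primed H1 (63.0% and 8.77% of all genes), and 4 were lower and 1 higher in 5iLA H7 than in t2iGo H1 (40.1% and 14.9% of all genes). ANAPC11, the RING subunit, had 85.4, 37.02 and 30.3 RPKM in primed H1, 11.3, 2.06 and 8.51 in 5iLA H7 and 2.96, 1.97 and 3.46 in t2iGo H1, with a difference of -3.65 ± 0.34 from primed to t2iGo H1 (limma adjusted p = 2.22e-06). FZR1 was at -2.03 ± 0.24 and the cullin subunit ANAPC2 at -2.01 ± 0.24 (limma adjusted p = 1.19e-05 and 1.50e-05). In 5iLA H7 minus t2iGo H1, ANAPC13 was at -1.62 ± 0.19 and CDC27 at -1.18 ± 0.19 (limma adjusted p = 3.34e-05 and 3.84e-04). None of the 13 passed in a shRNA comparison by limma. Against control, 1 had an unadjusted p below 0.05, ANAPC11 with uCCNE1 (-1.20 ± 0.34, limma adjusted p = 0.349), where 9.14% of all genes were lower.

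The 23 genes of the G1/S phase served as the neighbouring wave of the cell cycle. In t2iGo H1 minus primed H1, 17 were lower and 0 higher (63.0% and 8.77% of all genes), with a median of -1.02 against -0.51 for the members and -0.82 for all genes. E2F1 was at -2.14 ± 0.18, the licensing factor CDT1 at -2.83 ± 0.24 and the helicase subunit MCM5 at -2.78 ± 0.27 (limma adjusted p = 1.24e-06, 1.33e-06 and 2.72e-06). In 5iLA H7 minus t2iGo H1, 10 were lower and 3 higher (40.1% and 14.9% of all genes), with a median of -0.57 against -0.79 for the members and -0.31 for all genes. In pCCNE1 minus uCCNE1, 21 of 23 lay below 0 (54.3% of all genes) with a median of -0.14, while 36 of 40 members lay above 0 with a median of 0.26. In primed H1 with pCCNE1 the median was -0.15 for the G1/S genes (17 of 23 below 0, against 48.4% of all genes) and 0.32 for the members. None of the 23 passed in a shRNA comparison by limma. At an unadjusted p below 0.05, 5 were lower with pCCNE1 (13.2% of all genes), among them MCM5 (-0.85 ± 0.27, limma adjusted p = 0.203). With uCCNE1 0 were lower at that p (9.14% of all genes). The difference between these lists was not tested.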

How the data were processed

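RNA was sequenced from 11 libraries, 1 per group, with TruSeq kits after RNeasy extraction, per the labels' protocols. The authors deposited RPKM values per gene in 2 tables, with TopHat2 2.3.0, Cufflinks 1.2.1 and hg19 named in the submitters' processing notes. Which step each served, how shared reads were counted and whether strand was used is not given in the sources used here. Depth was estimated from the steps of low RPKM values, at 6.49 to 25.2 M reads per library. Differences were taken on the log2(RPKM + 1) scale, which understates the change of low genes, over 12116 genes with a mean of at least 1 RPKM (11015 in the untreated table). limma 3.58.1 (R 4.3.3) was fitted to the 9 shRNA libraries with culture and shRNA as terms and an intensity trend, with Benjamini-Hochberg adjustment over all genes and a threshold of 0.05. The script was tested on simulated data. With 1 library per group, the p-values cover no more than the variation among these samples, part of which may be technical. Alternatives were a pseudocount of 0.1, no filter, quantile normalization, median-ratio scaling, other terms, fewer libraries and a size of 0.5. Genes were named by rule: CDK1, CCNB1, the 2 most abundant members per role, members past the threshold, the 2 largest rises and falls per comparison, and up to 3 genes per other list by smallest p. KIF20A, PRC1 and other values given outside that rule were chosen after they were seen. The members and lists were chosen with earlier results of these data known. Transcript lengths are from GENCODE on GRCh38 and promoters from RefSeq on GRCh38.p14.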

Additional observations from a re-analysis of the deposited data

Results flagged for a closer look

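In RPKM as deposited, the members' median difference between pCCNE1 and control had opposite signs in 2 cultures, which it did not under the scalings. It was -0.34 in 5iLA H7 (all genes -0.30), with 30 of 40 members below 0 (76.1% of all genes), a share near that of all genes. In primed H1 it was 0.32 (all genes 0.01), with 34 of 40 above 0 (50.9% of all genes). The difference between these medians was not tested. Gene by gene, the limma test of the pCCNE1 effect in 5iLA H7 against the mean of the other cultures passed for 0 of 40 members. Of all genes, 0% passed upwards and 0.0165% downwards. At an unadjusted p below 0.05, 7 members were lower and 1 higher, where 12.0% and 2.99% of all genes were. The 5iLA median was 0.10 under quantile normalization and 0.05 under median-ratio scaling, and the primed one stayed at 0.35 and 0.31.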

How the results depend on the processing

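Most values kept their direction and their side of the threshold. The others moved mainly under the scalings or without the uCCNE1 or pCCNE1 libraries, and the cause was not tested. For t2iGo minus primed H1, quantile normalization and median-ratio scaling gave 19 and 18 members higher and 10 and 10 lower. The members' medians were 0.34 and 0.35 under these scalings (all genes 0.02 and -0.04). Under them the difference was 0.24 and 0.16 for CCNB1, 0.13 and 0.11 for CCNB2, 0.19 and 0.22 for CDC25C, 0.25 and 0.17 for CKS1B, 0.066 and 0.023 for BUB1, and 0.10 and 0.069 for BUB1B. For 5iLA H7 minus t2iGo H1, 3 and 3 members were higher under the scalings (3106 and 3512 of 12116 genes). Without the control libraries 0 members were higher (1237 genes), and without the uCCNE1 libraries 6 were lower (3001 genes). For uCCNE1 minus control, CENPE was at 0.17 and 0.14 under the scalings and 0.12 without primed H1. For pCCNE1 minus control, the members' median was 0.12 and 0.077 under the scalings, 0.18 without 5iLA H7 and 0.0039 without t2iGo H1. For pCCNE1 minus uCCNE1, CCNB1 was at 0.14 without t2iGo H1. Within cultures, the scalings gave medians of 0.099 and 0.051 for pCCNE1 in 5iLA H7 and 0.075 and 0.071 for pCCNE1 in t2iGo H1. Median-ratio scaling gave -0.0080 for uCCNE1 in t2iGo H1. For untreated H7 the scalings gave medians of -0.16 and -0.073. Counts of members with a size of at least 1 were 0 and 0 lower for uCCNE1 in 5iLA H7 under the scalings. For pCCNE1 in 5iLA H7 they were 1 and 1 higher and 0 and 0 lower under the scalings, and 1 higher and 2 lower with a pseudocount of 0.1. For pCCNE1 in t2iGo H1 the count was 0 lower under median-ratio scaling. For untreated H7 the scalings gave 0 and 0 higher and 2 and 1 lower. At a size of at least 0.5, the counts were 2 lower for uCCNE1 and 8 higher for pCCNE1 in primed H1, 31 lower for uCCNE1 and 2 higher and 18 lower for pCCNE1 in 5iLA H7, 9 lower for pCCNE1 in t2iGo H1, and 7 higher and 5 lower in untreated H7. Shares of all genes were not computed at that size, nor for a size of at least 1 under the other settings. These counts therefore cannot be read as particular to the members. The culture term pairs the shRNA libraries of a culture, with 4 residual degrees of freedom, and without that term 0 members passed in the shRNA comparisons as well. With 1 library per group, no spread within a group could be estimated, and the lowest member value rested on an estimated 56.1 reads.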
